A study of Oryza sativa with 12 samples.

Results

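Shoot transcript levels of the rice mutant slr1 (k1001), which carries a mutation in the DELLA gene SLR1, were set against those of gid1-3, a mutant of the gibberellin receptor gene GID1. The comparison rests on 6 of the 12 arrays of the study, 3 per line, chosen by their labels, and on 57194 of the 57381 probe sets of an Affymetrix rice array after control probe sets were left out. The study measured 4 lines, the parental cultivar Taichung 65 (T65), gid1-3, gid2-1 and slr1 (k1001), with 3 biological replicates each. Both mutants compared here are in the T65 background, each represented by a single allele. All plants grew in a greenhouse under natural conditions, and shoots were taken 5 weeks after germination. Loss or gain of function of the k1001 allele is not stated in the labels, nor is the number of plants in a replicate. Neither the T65 nor the gid2-1 arrays enter the comparison, and T65 levels are given only as a description.

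Gibberellin is a hormone of stem elongation, germination and flowering. In rice the soluble receptor GID1 binds gibberellin and then the DELLA protein SLR1, which is handed by the F-box protein GID2 to the degradation machinery. SLR1 holds back gibberellin responses while it is present, so the receptor and the DELLA act at opposite ends of the same step, and the direct comparison asks in which transcripts a receptor mutant and a DELLA mutant part.

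Among the 6 arrays compared, those of a line correlated with r of at least 0.94, and those of different lines with at most 0.928 (log2 signal, Pearson). The median coefficient of variation of brighter probe sets was 7.63% in gid1-3 and 8.86% in slr1. The number of arrays limits the precision. Signals are scaled linear intensities, and a signal was taken as above background where it exceeded the 95th percentile of the array's reporter controls, which was 33.2 to 52.2 in gid1-3 and 28.9 to 51.6 in slr1. The label shoot fits the chlorophyll-binding protein gene CAB2R, a leaf marker, which read 26327, 28408 and 26661 in gid1-3 and 23845, 29268 and 32324 in slr1. The summed signal of the 4 leaf markers was 54415 to 59156 in gid1-3 and 45483 to 63870 in slr1. Of these markers RBCS1 lay below background on all 6 arrays. In slr1, 1 of the 4 was called lower and 0 higher, with a median log2 difference of -0.22. Under other settings 0 to 2 of them were called lower and 0 to 1 higher. Markers of other organs were dim. The 3 root markers summed to 609 to 621 in gid1-3 and 870 to 951 in slr1, with the silicon channel gene Lsi1 called higher (0.50 ± 0.08), and 1 and 2 of the 3 were above background on all arrays of the respective line. The 6 anther markers summed to 355 to 370 and 202 to 267, the 8 floral markers to 669 to 753 and 598 to 645, and the 9 seed storage markers to 839 to 904 and 1055 to 1112, in gid1-3 and slr1 respectively. Among them MSP1 of anthers and MADS58 of flowers were called lower in slr1 and the glutelin gene GLUA-2 of seeds higher. The ratio of 3′ to 5′ signal of an actin control, a measure of RNA integrity, was 5.24 to 5.92 in gid1-3 and 6.46 to 7.37 in slr1. With a second pair of actin probe sets it was 2.13 to 2.49 and 2.14 to 2.79. The part of these differences in the results below was not tested. In whole shoots, fewer cells of a type and less RNA per cell cannot be told apart.

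The lines differed in a large share of the measured transcripts. Of 57194 probe sets 15956 passed limma's test (adjusted p under 0.05), which is 27.9%, with 7723 higher in slr1 (13.5%) and 8233 lower (14.4%). Calls that reached 2-fold numbered 5793 (10.1%), 3576 higher and 2217 lower in slr1. At 16-fold or more, a log2 difference of at least 4, there were 117 higher and 61 lower. The balance of directions depends on scaling: higher calls made up 48.4% of all calls as deposited and 62.1% with arrays centred on the spiked controls, a centring that moved the median log2 difference of all probe sets from -0.01 to 0.13. Calls were concentrated in bright probe sets, from 2.56% in the dimmest of 4 equal groups to 63.8% in the brightest. Taken as genes, each by its brightest probe set, 9736 of 17905 were called (54.4%), 4770 higher in slr1 (26.6%) and 4966 lower (27.7%), and the median log2 difference was -0.02. Rises of at least 2-fold made up 11.1% of genes and falls of that size 5.77%. The arrays of the lines did not overlap for 65.8% of genes. Gene groups below are read against these shares. Among genes described below, the probe sets of KS1, GAMYB, EXPB4, H2B.7, CYP76M8, SGR, PSY1, LEA19, EXLA2 and SWEET14 can also bind related transcripts, besides those for which this is said at the value.

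The genes of the mutated pathway came first. GID1 read 6415, 6568 and 6238 in gid1-3 and 2467, 2456 and 2461 in slr1. All slr1 arrays were below all gid1-3 arrays, and GID1 fell by 1.38 ± 0.05 on the log2 scale (SE, adjusted p = 2.5e-08, limma). A second GID1 probe set was near background in both lines and did not pass (-0.20, adjusted p = 0.81). The DELLA gene SLR1 read 822, 839 and 820 in gid1-3 and 1473, 1631 and 1592 in slr1, so it was higher in the line that carries its mutation. The log2 difference was 0.92 ± 0.06 (adjusted p = 2.1e-06). The entry matched to GID2 read 5568, 5633 and 5870 in gid1-3 and 8525, 9331 and 9408 in slr1 (0.67 ± 0.06, adjusted p = 9.4e-06). GF14E, a 14-3-3 protein, is listed as a second name of the entry, and which transcript the probe set reads is not settled here. Signal does not show whether a mutation is present.

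Genes of gibberellin synthesis moved in both directions. GA20ox3, a GA 20-oxidase, read 2302, 2322 and 2183 in gid1-3 and 468, 527 and 530 in slr1. The arrays did not overlap, and the gene fell by 2.16 ± 0.07 (log2, adjusted p = 1.4e-08). GA20ox2, the GA 20-oxidase altered in semi-dwarf rice varieties, read 1143, 1128 and 999.9 in gid1-3 against 365, 335 and 249 in slr1, and fell by 1.80 ± 0.13 (adjusted p = 3.3e-06). The early gene CPS1, whose enzyme makes the first committed intermediate, went the other way, from 229, 247 and 216 to 413, 411 and 454 (0.88 ± 0.11, adjusted p = 0.00011). Among the other synthesis genes KO2 was lower in slr1 (-0.41 ± 0.09, adjusted p = 0.0065, from a probe set that can bind related transcripts), while KS1 (0.17, adjusted p = 0.20) and KAO (0.13, adjusted p = 0.50) did not pass. KO2 lost its call when arrays were centred on spiked controls and when the prior variance had no trend. Of 6 synthesis genes 1 rose and 3 fell. EUI1, which inactivates gibberellin, measured 0.81 ± 0.29 and missed the threshold (adjusted p = 0.067).

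Of 8 signalling genes, the mutated genes included, 3 rose and 2 fell in slr1. SLRL1, a DELLA-like gene, read 87.5, 136 and 124 in gid1-3 and 334, 306 and 302 in slr1 (1.46 ± 0.18, adjusted p = 0.00014). SPY, a negative regulator of gibberellin signalling, was lower by a small margin (-0.28 ± 0.07, adjusted p = 0.012), and lost its call under 5 other settings. D1, the G protein alpha subunit, EL1, a kinase that acts on SLR1, and GAMYB, the transcription factor of the gibberellin response in aleurone and anthers, did not pass, at 0.21, -0.22 and -0.04. Of 5 alpha-amylases, the secreted starch enzymes known as gibberellin targets in germinating grain, 0 rose and 2 fell. Only 2 of the 5 were above background on all 6 arrays, which bounds what the others can show. Under other settings 1 to 2 were called lower.

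**Figure D1:**
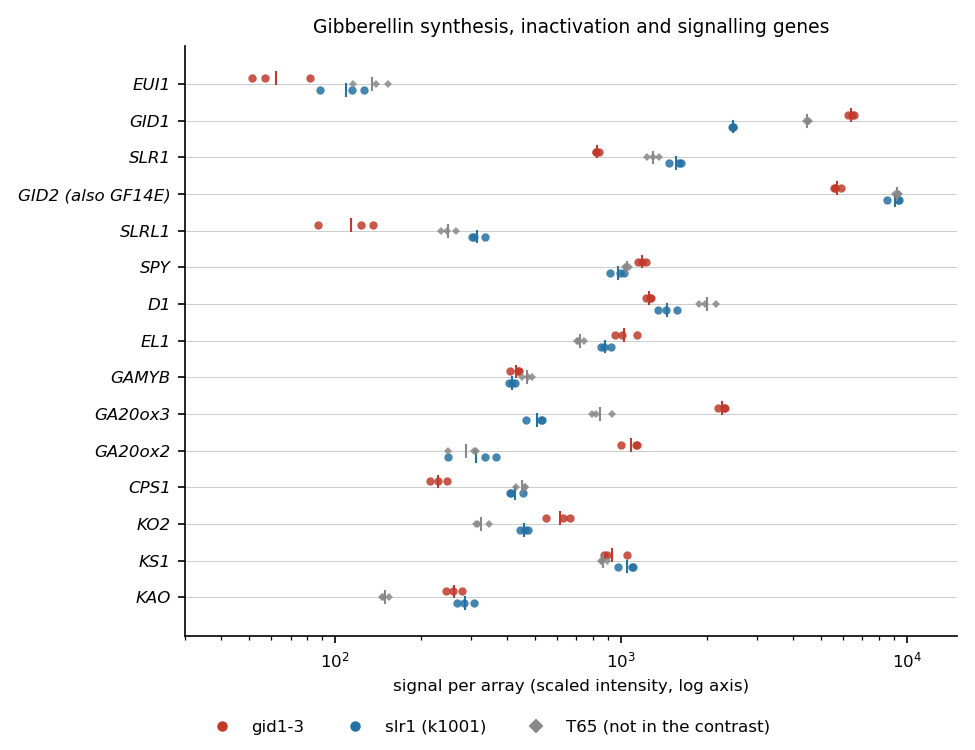
Signal per array (scaled intensity, log axis) of 15 genes of gibberellin synthesis, inactivation and signalling in gid1-3, slr1 (k1001) and T65, which is not in the contrast. Points are arrays, 3 per line, and ticks are means of log2 signal. GID1, GA20ox2 and GA20ox3 sit to the right in gid1-3, and SLR1, SLRL1 and CPS1 to the right in slr1.

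The 15 largest rises among named genes were taken per probe set, by a rule that kept only probe sets whose lines did not overlap, as in 39.1% of all probe sets. LAC4, a laccase of the family that polymerises lignin, read 51.2, 6.31 and 38.5 in gid1-3, above background on only 1 of 3 arrays. In slr1 it read 1201, 1320 and 1120, at least 25.3-fold higher (adjusted p = 5.3e-05). A bound of this kind sets the bright line against the reporter level, or the gene's own signal where higher, on the dim line's arrays. CRSH2, a calcium-activated synthase of the alarmone ppGpp in plastids, read 162, 92.0 and 150 in gid1-3 and 4951, 4768 and 4262 in slr1, 35.6-fold higher (adjusted p = 1.9e-08). The arrays of both genes were far apart.

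BGLU30, a beta-glucosidase, rose 24.4-fold (log2 4.61 ± 0.14) and AtMAP70-4, named for a family of microtubule-associated proteins of Arabidopsis, 18.5-fold (4.21 ± 0.08). The beta-expansin EXPB2, at 87.4, 36.0 and 44.6 in gid1-3 and 1080, 1316 and 1358 in slr1, was at least 21.2-fold higher. EXPB11, the cellulose synthases CESA9 and CESA7, the aquaporin PIP2-2 and the germin-like protein GER8, whose probe set can bind related transcripts, rose 13.2, 13.1, 11.8, 10.8 and 10.1-fold. BGLU14, AT15 and the CASP-like membrane protein CASPL1B1 were dim in gid1-3 and at least 9.99, 9.69 and 8.75-fold higher in slr1. For 4 of the 15 genes probe sets disagreed, in size for GER8 and PIP2-2 and in direction for QM1 and PHT1-1. The other GER8 probe sets rose 4.66-fold and 1.91-fold, the last a call lost under 2 other settings, and the brighter PIP2-2 probe set rose 3.49-fold. These probe sets can also bind related transcripts. The ribosomal protein gene QM1 was 19.1-fold higher by a probe set of moderate signal. Its 2 bright probe sets, which can bind related transcripts, read -0.16 (adjusted p = 0.075) and -0.22 (adjusted p = 0.028). The latter call was lost under 7 other settings. The phosphate transporter PHT1-1 was at least 10.0-fold higher by a dim probe set and lower by its bright one (-0.76 ± 0.07, adjusted p = 8.9e-06).

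Among the 15 largest falls, ICL, isocitrate lyase, which with malate synthase lets plants turn fatty acids into sugars, read 10011, 10868 and 10684 in gid1-3 and 172, 121 and 151 in slr1. It was 71.8-fold lower in slr1 (log2 -6.17 ± 0.11, adjusted p = 6.2e-10). The entry named MS is taken here as malate synthase from its listed names only, since the reference table gives no description. It read 7718, 7620 and 7547 in gid1-3 against 569, 644 and 572 in slr1 (-3.68 ± 0.06, adjusted p = 4.4e-10). Both genes were high on every gid1-3 array and low on every slr1 array, and the rule for falls also kept only probe sets without overlap.

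BURP16, of a plant protein family named for its shared BURP domain, read 12068, 12933 and 13162 in gid1-3 and 218, 220 and 183 in slr1, 61.7-fold lower (adjusted p = 3.0e-10). ABCG45, an ABC transporter, read 1071, 1035 and 1009 in gid1-3 and was above background on 1 of 3 slr1 arrays, at least 23.5-fold lower. PP2C45, a protein phosphatase, fell by 3.91 ± 0.08 (log2) by a probe set and by 0.42 ± 0.06 by another. OPR4, of the oxophytodienoate reductase family, fell 14.9-fold, the diterpene synthases KSL10, CPS4 and KSL4 fell 12.9, 7.95 and 7.92-fold, the laccase LAC24 fell 12.1-fold and the lipoxygenase CM-LOX2 fell 8.44-fold. The transcription factor gene NAC45 fell 9.97-fold. The non-symbiotic haemoglobin genes NSHB1 and NSHB2, which bind oxygen and nitric oxide, were both lower in slr1, NSHB2 7.09-fold. The probe sets of NSHB1 disagreed in size: the one that met the rule, dim in slr1 and able to bind related transcripts, was at least 6.22-fold lower, and its brighter ones were 2.14-fold and 2.35-fold lower (adjusted p = 0.00039 and 0.00043). The probe set with the 2.35-fold fall can also bind related transcripts. TBT2, a benzoyltransferase, was at least 9.39-fold lower.

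**Figure D2:**
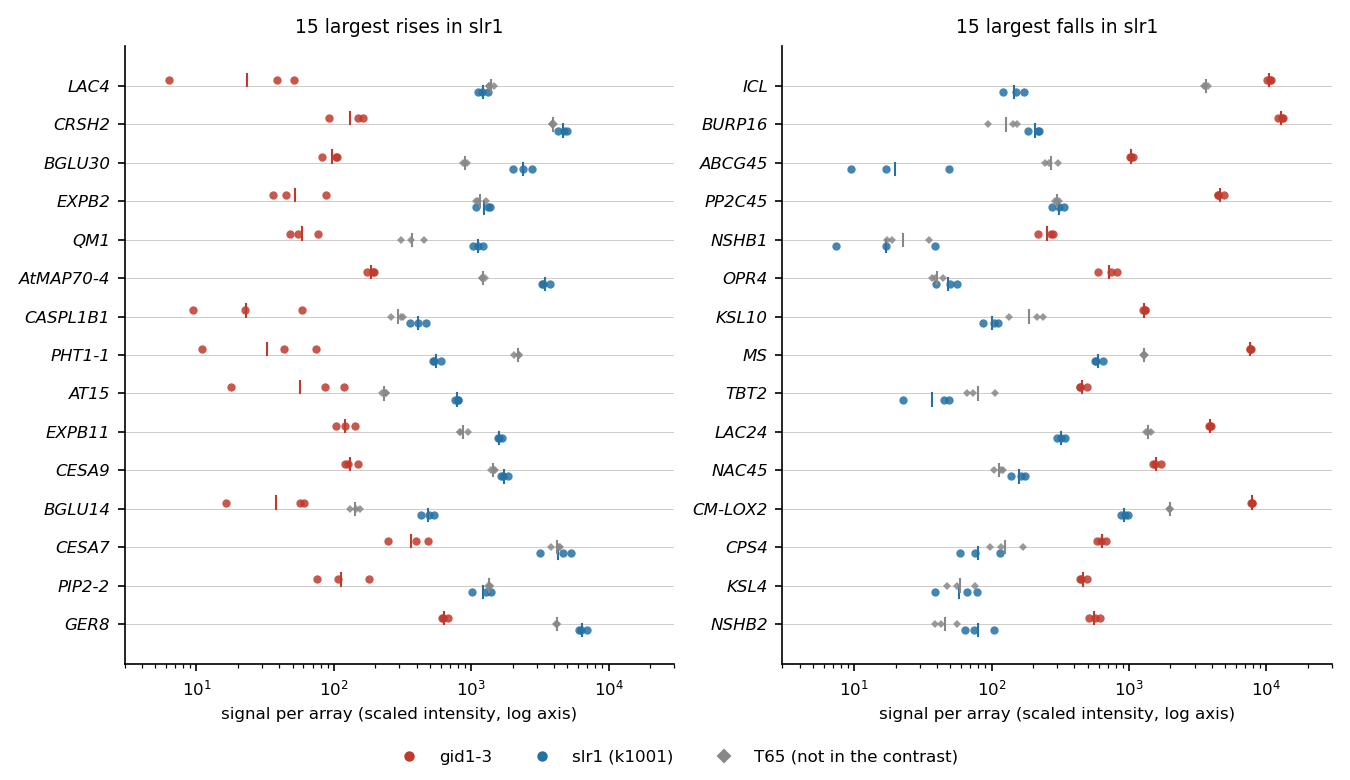
Signal per array (scaled intensity, log axis) of the named genes with the 15 largest rises and the 15 largest falls in slr1 (k1001) against gid1-3, with T65 as a description. Points are arrays, 3 per line, and ticks are means of log2 signal. ICL and BURP16 lie at 10011 or above in gid1-3 and at 220 or below in slr1.

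The 3 cellulose synthases of secondary walls, CESA4, CESA7 and CESA9, which work as 1 complex in xylem and fibres, all rose, with a median log2 difference of 3.56. CESA4 read 452, 385 and 466 in gid1-3 and 4360, 4023 and 4177 in slr1, and CESA9 read 121, 128 and 149 against 1660, 1696 and 1856. Every slr1 array was above every gid1-3 array for the 3 genes, and the lines did not overlap for 65.8% of all genes. For CESA7 and CESA9, among the largest rises, the rule of that ranking required this. CESA4 rose by 3.27 ± 0.08 (adjusted p = 2.7e-09). The T65 mean lay between the mutants for all 3, at 4103 for CESA4. Of 5 primary-wall cellulose synthases 4 rose by smaller amounts, the median being 1.00. CESA8 rose by 1.32 ± 0.05, CESA1 by 1.02 ± 0.05, CESA3 by 1.00 ± 0.05 and CESA6 by 0.48 ± 0.07, while CESA5 measured 0.08 (adjusted p = 0.73). For each of the 5 the T65 mean was above both mutants.

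Of 9 laccases 6 rose and 2 fell, with a median of 1.17. LAC10 read 259, 228 and 263 in gid1-3 and 1915, 1909 and 2017 in slr1 (2.96 ± 0.08, adjusted p = 4.6e-09). LAC3 (2.89 ± 0.15) and LAC7 (1.17 ± 0.08) rose with it. LAC24 ran against them, from 3969, 3828 and 3858 to 344, 320 and 301 (-3.60 ± 0.07, adjusted p = 7.2e-10), so the family was split between the lines. The other laccase that fell, LAC19 (-1.53 ± 0.24), was chosen for mention after its value was seen.

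Of 17 genes of monolignol synthesis, the path to the building blocks of lignin, 9 rose and 3 fell (median 0.40). CAD2, a cinnamyl alcohol dehydrogenase, read 1656, 1649 and 1833 in gid1-3 and 5125, 5478 and 5554 in slr1 (1.65 ± 0.06, adjusted p = 3.2e-08). Among 4-coumarate-CoA ligases, 4CL2 (1.70 ± 0.13) and 4CL3 (0.77 ± 0.06) rose while the brightest, 4CL5, fell from 8952, 9290 and 9744 to 3890, 4023 and 4004 (-1.23 ± 0.05, adjusted p = 7.9e-08). The peroxidase PRX74 rose by 3.10 ± 0.11 and PRX112 fell by 0.68 ± 0.12. Cellulose synthase-like genes, which make other wall polysaccharides, were mixed, with 9 of 20 higher and 6 lower. CSLF6, the main synthase of mixed-linkage glucan in grasses, rose by 0.58 ± 0.05, and CSLE1 fell by 1.28 ± 0.06.

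Expansins loosen the wall and let cells grow. Of 14 alpha-expansins 7 rose and 0 fell, with a median of 1.00, and of 11 beta-expansins 8 rose and 0 fell, with a median of 1.49. EXPA1 was below background on the 3 gid1-3 arrays and read 362, 445 and 362 in slr1, at least 9.34-fold higher (adjusted p = 1.8e-06). EXPA2 read 229, 224 and 187 in gid1-3 and 1101, 1175 and 1246 in slr1 (2.46 ± 0.10, adjusted p = 5.4e-08). EXPA5 and EXPA6 rose by 1.80 ± 0.11 and 1.48 ± 0.08. Only 6 of the 14 alpha-expansins were above background on all 6 arrays, which bounds what the others can show.

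EXPB3, the brightest beta-expansin, read 2833, 2799 and 2756 in gid1-3 and 7691, 8157 and 8712 in slr1 (1.55 ± 0.06, adjusted p = 3.2e-08). EXPB6, EXPB2, EXPB3 and EXPB4 follow each other in the reference gene order with 0 genes between them, and all 4 rose, EXPB6, EXPB3 and EXPB4 by 1.49, 1.55 and 1.34 and EXPB2 by the bound given above. The T65 mean lay between the mutants for all 11 beta-expansins and for 6 of the 14 alpha-expansins. Of 4 expansin-like genes, EXLA4 and EXLA1 rose and EXLA3 fell (-0.90 ± 0.12), while EXLA2 measured -0.09 (adjusted p = 0.42). The call of EXLA1 (0.21 ± 0.06) was lost under 7 other settings.

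Tubulins form microtubules, the tracks of cellulose synthases and of the mitotic spindle. Of 11 tubulins 8 rose and 0 fell, with a median of 0.89. TUBB8 read 801, 971 and 789 in gid1-3 and 5329, 4880 and 4215 in slr1 (2.49 ± 0.10, adjusted p = 5.2e-08). TUBB6 rose by 2.37 ± 0.10, TUBB1 by 1.68 ± 0.08 and TUBB4, which reached 10471 in slr1, by 1.57 ± 0.06. The T65 mean lay between the mutants for 8 of the 11.

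Of 17 cyclins and B-type cyclin-dependent kinases 10 rose and 2 fell, with a median of 0.61. CYCB1-1, a cyclin of mitosis, read 264, 230 and 277 in gid1-3 and 1664, 1717 and 1668 in slr1 (2.72 ± 0.09, adjusted p = 1.1e-08). CYCB2-2 rose by 2.75 ± 0.15, CYCB2-1 by 2.05 ± 0.11 and the kinase CDKB2-1 by 1.87 ± 0.11. The groups of arrays were apart for all 4 genes, as for 65.8% of all genes. The 2 that fell, CYCD5-3 (-1.07 ± 0.07) and CYCA1-4 (-0.62 ± 0.13), were chosen for mention after their values were seen.

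Of 23 genes of DNA replication 11 rose and 2 fell, with a median of 0.65. PCNA, the sliding clamp of DNA polymerase, read 814, 841 and 822 in gid1-3 and 1635, 1700 and 1750 in slr1 (1.04 ± 0.06, adjusted p = 5.7e-07). The helicase subunits MCM3 and MCM4 rose by 1.54 ± 0.10 and 1.43 ± 0.09 and the single-strand binding subunit RPA32 by 1.33 ± 0.10. All 5 measured genes of histone H2B rose, with a median of 0.84, from 0.67 ± 0.07 for H2B.11 to 1.15 ± 0.08 for H2B.5. H2B.7, H2B.6 and H2B.5 lie within a few genes of each other, and whether their probe sets read separate transcripts was not tested.

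**Figure D3:**
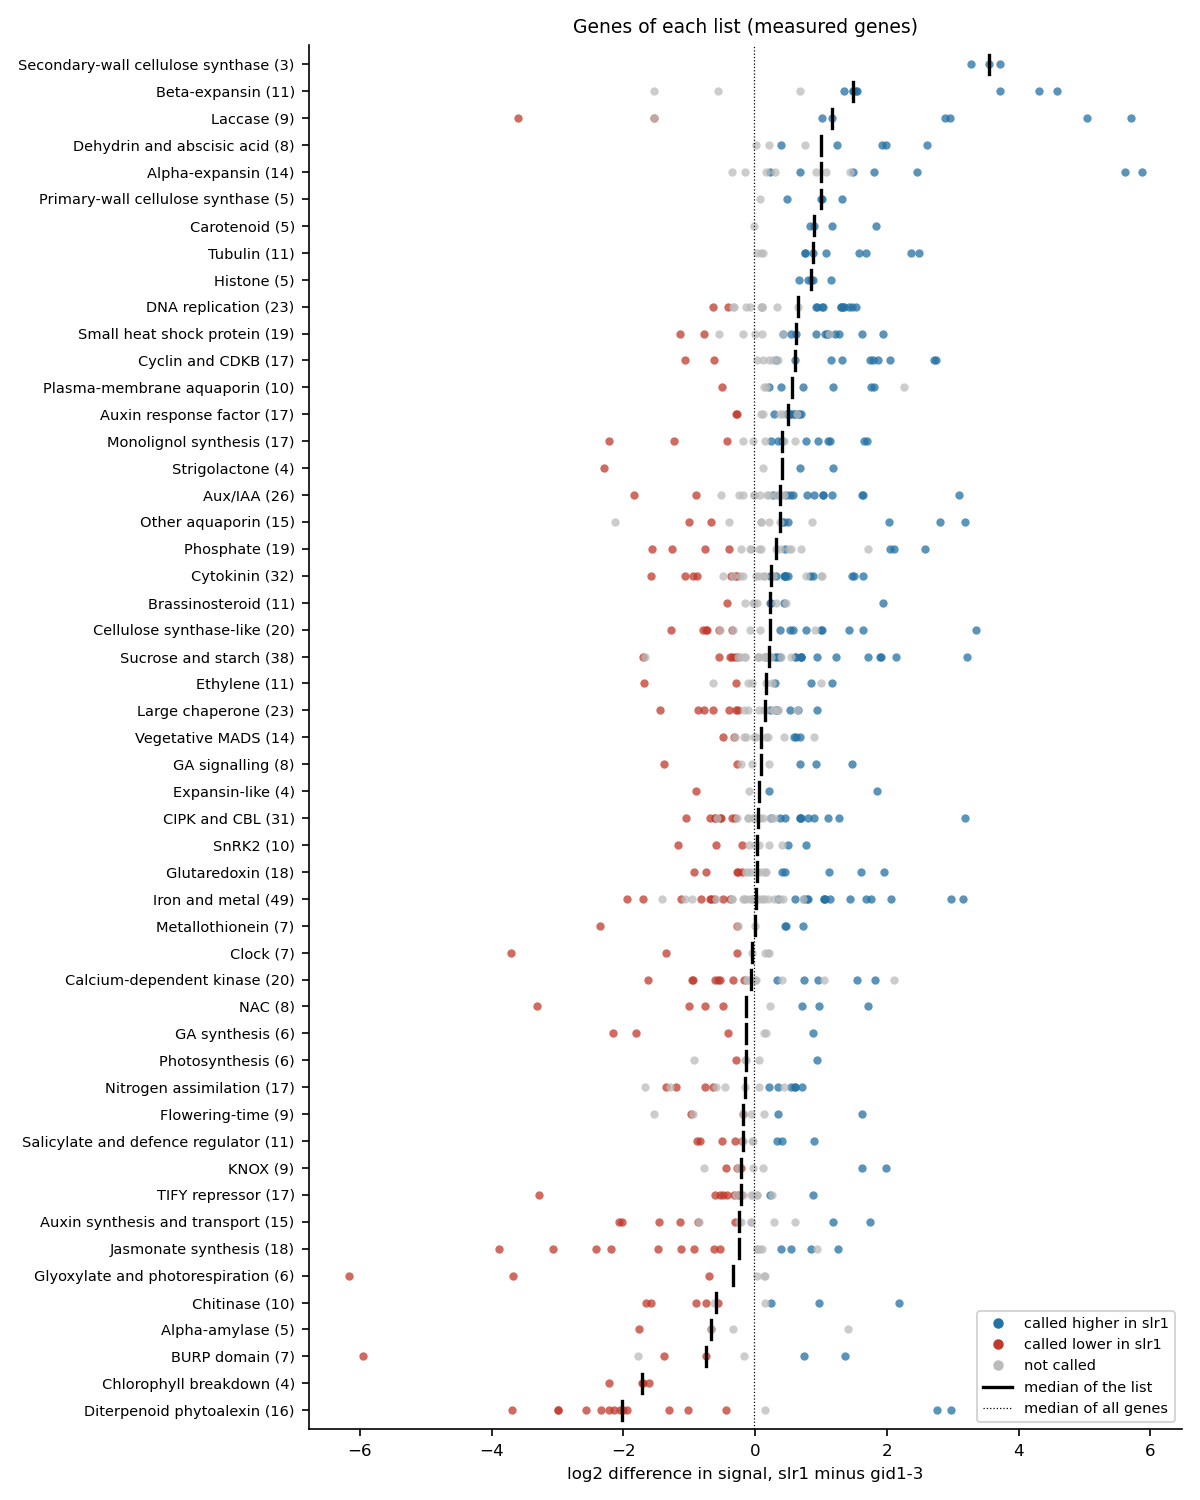
Log2 difference in signal, slr1 (k1001) minus gid1-3, of the measured genes of each list with at least 3 of them, in order of the list's median (black tick). Blue and red points passed the test and grey points did not, and the dotted line is the median of all genes (-0.02). Secondary-wall cellulose synthases stand at the top (3.56) and diterpenoid phytoalexin genes at the bottom (-2.03).

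Diterpenoid phytoalexins are antimicrobial compounds that rice makes from the precursor it also uses for gibberellin. Of 16 genes of their synthesis 2 rose and 13 fell in slr1, with a median of -2.03. KSL10, a diterpene synthase, read 1313, 1263 and 1297 in gid1-3 and 104, 86.2 and 111 in slr1 (-3.69 ± 0.11, adjusted p = 9.1e-09). The P450 gene CYP701A8, a relative of kaurene oxidase, read 1721, 1673 and 1636 against 283, 276 and 293 (-2.56 ± 0.07, adjusted p = 4.7e-09). CYP99A2 and CYP71Z7 fell by 2.33 ± 0.09 and 2.22 ± 0.10. Every gid1-3 array was above every slr1 array for these 4 genes, and the lines did not overlap for 65.8% of all genes. For KSL10, among the largest falls, the rule of that ranking required this.

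Both chromosomal groups of the pathway took part, though not uniformly. In 1 group CPS4, CYP99A3, MAS, KSL4 and CYP99A2, with at most 2 other genes between neighbours, all fell. CPS4, CYP99A3, KSL4 and CYP99A2 fell by 2.99, 2.14, 2.99 and 2.33, and MAS, above background on 2 of 3 slr1 arrays, was at least 3.59-fold lower. These genes belong to the synthesis of momilactones. The other group, with at most 2 other genes between neighbours, was split. CYP76M5, CYP76M8, KSL7, CYP71Z7, CPS2 and CYP76M6 fell, by 0.44 to 2.22, while CYP71Z6, next to KSL7, and KSL5, next to CPS2, rose. CYP76M5 was above background on 2 of 3 slr1 arrays, and CYP76M8, the smallest fall, passed narrowly (-0.44, adjusted p = 0.047). A dimmer CYP76M6 probe set, below background on the slr1 arrays, fell more, at least 4.54-fold (adjusted p = 0.00044). CYP71Z6 read 41.7, 49.3 and 39.5 in gid1-3 and 322, 370 and 330 in slr1, at least 7.59-fold higher (adjusted p = 1.3e-06). KSL5 was below background on the 3 gid1-3 arrays and read 86.8, 107 and 103 in slr1, at least 2.37-fold higher (adjusted p = 0.0013). These 2 genes were chosen for mention after their values were seen. CYP76M7 measured 0.15 (adjusted p = 0.81).

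**Figure D4:**
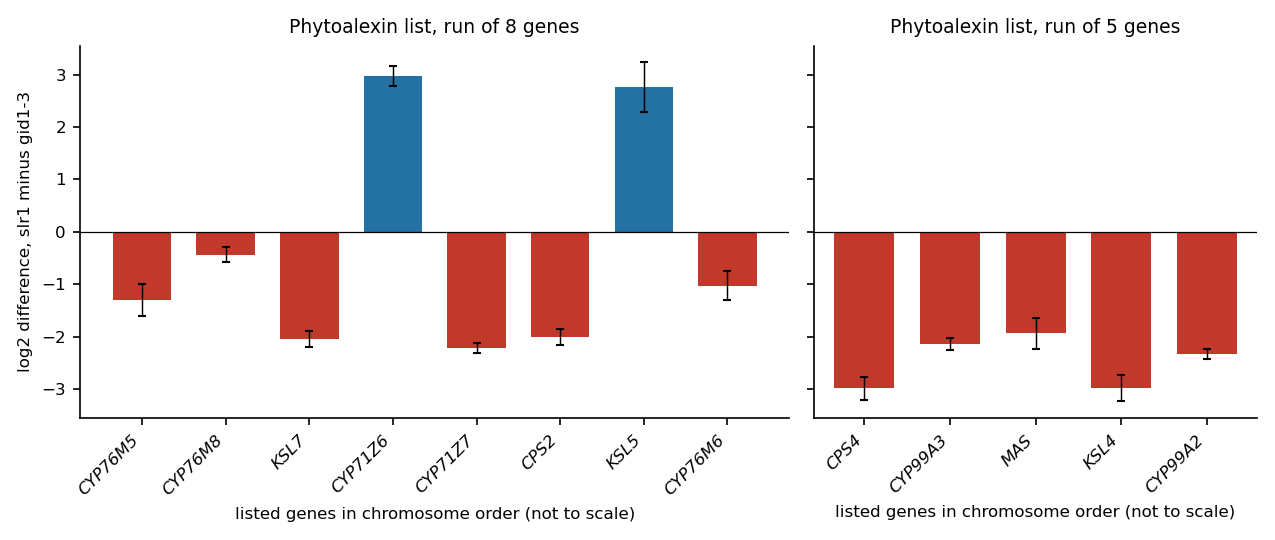
Log2 difference, slr1 (k1001) minus gid1-3 (bars, with SE), of diterpenoid phytoalexin genes that neighbour each other, in the reference gene order and not to scale. The 5 genes from CPS4 to CYP99A2 are all below 0, and in the run of 8 CYP71Z6 and KSL5 stand above 0 among 6 neighbours below it.

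Jasmonate is an oxylipin hormone of wounding and defence. Of 18 genes listed for its synthesis, members of the oxophytodienoate reductase family included, 4 rose and 9 fell in slr1, with a median of -0.25. The largest differences were falls. CM-LOX1, a lipoxygenase, read 12123, 12948 and 12863 in gid1-3 and 2856, 2219 and 2121 in slr1 (-2.41 ± 0.10, adjusted p = 5.5e-08). CM-LOX2 read 7825, 7698 and 7869 against 927, 975 and 874 (-3.08 ± 0.06, adjusted p = 7.2e-10). AOS2, an allene oxide synthase, fell by 2.19 ± 0.06 (adjusted p = 7.1e-09). Neighbouring reductase genes parted: OPR4 (-3.89 ± 0.19) and OPR5 (-0.93) fell while OPR10 (0.55) and OPR1 (0.85 ± 0.05) rose, the last 3 named after their values were seen. Whether each of these reductases acts in jasmonate synthesis was not tested. Of 17 TIFY genes, most of them JAZ repressors of jasmonate signalling, 2 rose and 8 fell, mostly by little (median -0.21). JAZ12 fell by 0.53 ± 0.06, JAZ13 by 0.49 ± 0.06 and JAZ5 by 0.62 ± 0.10, and JAZ3 rose by 0.88 ± 0.06. The largest difference was that of JAZ2, below background on the slr1 arrays and at least 2.55-fold lower (adjusted p = 0.0043). Its probe set can bind related transcripts, and JAZ2 is named after its value was seen.

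Other defence genes moved in both directions. Of 10 chitinases, which cut fungal walls, 3 rose and 5 fell (median -0.59). Cht8 read 5351, 5759 and 5834 in gid1-3 and 1622, 1800 and 1969 in slr1 (-1.66 ± 0.08, adjusted p = 1.1e-07), with a probe set that can bind related transcripts, as can that of Cht3 (-1.58 ± 0.09). Cht11 and Cht1 fell by 0.90 ± 0.05 and 0.74 ± 0.06. Of 11 salicylate and defence regulators 3 rose and 5 fell (median -0.18). NH1, the rice NPR1 homologue, fell by 0.84 ± 0.09 and WRKY24 by 0.88 ± 0.07, and WRKY62 rose by 0.90 ± 0.06.

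The 4 measured genes of chlorophyll breakdown all fell in slr1, with a median of -1.71. NYC1, which reduces chlorophyll b, read 7436, 7991 and 7980 in gid1-3 and 2279, 2334 and 2561 in slr1 (-1.71 ± 0.06, adjusted p = 2.5e-08). RCCR1, a reductase of the last steps in the plastid, fell by 2.22 ± 0.08, NOL by 1.61 ± 0.06 and SGR, the stay-green gene, by 1.72 ± 0.09. The T65 mean lay between the mutants for the 4 genes. Of 6 genes of the glyoxylate cycle and photorespiration 3 fell and 0 rose. Beside ICL and MS, the glycolate oxidase GLO4 fell by 0.71 ± 0.11, with a probe set that can bind related transcripts. GLO1, GLO3 and GLO5 measured 0.15, 0.13 and 0.03 and did not pass. Of 7 BURP-domain genes 2 rose and 3 fell. Carotenoid genes went up, with 4 of 5 higher (median 0.89). The phytoene synthases PSY1, PSY2 and PSY3, which start the pathway, rose by 1.17 ± 0.06, 0.89 ± 0.06 and 1.83 ± 0.10, and PDS measured -0.02 (adjusted p = 0.90).

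Of 17 auxin response factors, which bind the promoters of auxin-responsive genes, 10 rose and 2 fell, and 0 reached 2-fold (median 0.49). ARF12 rose by 0.69 ± 0.07 and ARF9 by 0.60 ± 0.06. Of 26 Aux/IAA repressors 13 rose and 2 fell (median 0.38). IAA13 read 779, 781 and 749 in gid1-3 and 6209, 6769 and 6818 in slr1 (3.10 ± 0.06, adjusted p = 7.2e-10). IAA6 ran the other way, from 6246, 6614 and 6546 to 1830, 1766 and 1819 (-1.84 ± 0.05, adjusted p = 5.8e-09). The lines did not overlap for either gene, as for 65.8% of all genes.

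Of 15 genes of auxin synthesis, conjugation and transport 2 rose and 6 fell (median -0.24). GH3.2 and GH3-8, which conjugate auxin to amino acids, fell by 2.02 ± 0.08 and 1.46 ± 0.08. PIN5a, of the auxin carrier family, rose by 1.74 ± 0.07 and GH3.1 by 1.18 ± 0.15. Cytokinin genes were mixed, with 13 of 32 higher and 7 lower. LOGL3, of the family that makes active cytokinins, read 2520, 2379 and 2421 in gid1-3 and 7118, 7013 and 6565 in slr1 (2.83-fold, adjusted p = 2.8e-08), and the response regulator RR9 fell by 1.57 ± 0.07. In the brassinosteroid list 4 of 11 rose and 1 fell, in the ethylene list 3 of 11 rose and 2 fell, and in the strigolactone list 2 of 4 rose and 1 fell.

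Aquaporins are channels for water and small solutes. Of 10 plasma-membrane aquaporins 6 rose and 1 fell (median 0.56). PIP2-2 by its brighter probe set read 4264, 4385 and 4529 in gid1-3 and 15640, 15446 and 14872 in slr1 (1.80 ± 0.05, adjusted p = 6.8e-09). That probe set can bind related transcripts, and the dimmer one rose too. PIP2-6 rose by 1.18 ± 0.06 and PIP2-7 fell by 0.51 ± 0.07. Of 15 other aquaporins 6 rose and 2 fell. NIP2-2 read 860, 801 and 925 in gid1-3 and 6038, 6143 and 5836 in slr1 (2.80 ± 0.07, adjusted p = 1.8e-09), with a probe set that can bind related transcripts. The vacuolar channel TIP1-2 rose by 2.03 ± 0.06.

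Of 8 dehydrin and abscisic acid genes 5 rose and 0 fell (median 1.01). RAB21, a dehydrin, read 278, 226 and 266 in gid1-3 and 1558, 1659 and 1490 in slr1 (2.61 ± 0.09, adjusted p = 2.4e-08). Its chromosomal neighbours RAB16B and RAB16C rose by 1.93 ± 0.21 and 1.25 ± 0.30, and RAB16D measured 0.76 (adjusted p = 0.25). Dhn1 rose by 0.39 ± 0.05. LEA19 (0.01) and VP1, which was below background in both lines, did not pass. Of 19 small heat shock proteins, chaperones that hold unfolded proteins, 11 rose and 2 fell (median 0.62). HSP17.4 read 361, 399 and 386 in gid1-3 and 1167, 1160 and 1183 in slr1 (1.62 ± 0.07, adjusted p = 1.0e-07). The gene named hsp17.9 fell from 4832, 5013 and 5295 to 2255, 2420 and 2204 (-1.14 ± 0.06, adjusted p = 3.0e-07). Of 23 large chaperones 6 rose and 7 fell.

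Metal genes moved in both directions around a median of 0.01, with 15 of 49 higher and 9 lower, beside 26.6% and 27.7% of all genes. Of the 49, 10 rose and 3 fell by at least 2-fold, beside 11.1% and 5.77% of all genes. NRAMP1, a metal transporter, read 253, 248 and 238 in gid1-3 and 1910, 1998 and 1924 in slr1 (2.98 ± 0.07, adjusted p = 1.9e-09). Its T65 mean was 327, near the receptor mutant. ZIP3, a zinc transporter, rose by 2.06 ± 0.09. YSL13, of the family that carries metals bound to nicotianamine, fell from 4299, 4152 and 4117 to 1092, 1090 and 1080 (-1.95 ± 0.05, adjusted p = 4.5e-09). NAAT1, which acts in the synthesis of iron-binding phytosiderophores, fell by 1.70 ± 0.07. The nicotianamine synthase NAS2 had the largest rise of the list (3.16 ± 0.20, adjusted p = 9.8e-07) and is named after its value was seen. Of 7 metallothioneins 3 rose and 2 fell, among them MT1B, which fell by 2.36 ± 0.08. Of 19 phosphate genes 4 rose and 4 fell.

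Of 38 genes of sucrose and starch 17 rose and 6 fell (median 0.20). The sucrose synthases parted, with SUS1 rising from 6210, 6348 and 6045 to 13450, 14767 and 15661 (1.24 ± 0.06, adjusted p = 2.7e-07) and SUS4 falling from 4866, 4921 and 4940 to 1665, 1467 and 1407 (-1.70 ± 0.07, adjusted p = 4.5e-08). SUS6 and the sugar exporter SWEET14 rose by 1.89 ± 0.15 and 1.92 ± 0.10. Of 31 calcium-regulated CIPK kinases and their CBL partners 11 rose and 8 fell, and CIPK5 rose from at most 137 on the gid1-3 arrays to 1051, 1065 and 1089 (3.19 ± 0.12, adjusted p = 3.5e-08). Of 7 clock genes 0 rose and 3 fell. PRR1 fell by 1.36 ± 0.09, and PCL1, below background on the 3 slr1 arrays, was at least 3.17-fold lower (adjusted p = 0.0016). The T65 means of both, 1392 and 481, were above both mutants. PRR95 fell by 0.28 ± 0.07, a call lost under 4 other settings, and LHY, PRR73, PRR37 and GI did not pass. Of 8 NAC transcription factors 3 rose and 4 fell.

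For strong differences the parental level was mostly between the mutants. Of the 5793 probe sets called at 2-fold or more, the T65 mean lay between both mutant means in 66.0% (95% Wilson interval 64.8 to 67.2%, over probe sets, which are not independent), above both in 20.4% and below both in 13.6%. Over all 57194 probe sets it lay between in 36.5%. A wide gap between the mutants leaves more room for another line, so the larger share is given without a test. Where T65 lay between the mutants it was nearer slr1 in 70.8% of the 2-fold calls and in 57.0% of all probe sets. Probe sets with 2-fold rises in slr1 had T65 above both mutants in 29.8% and below both in 3.94%, and those with 2-fold falls had it above both in 5.14% and below both in 29.2%. Of the 15 largest rises T65 lay between for 12 and above both for 3, LAC4, PHT1-1 and PIP2-2. Other probe sets can place T65 elsewhere: brighter ones put it below both mutants for PHT1-1 and between them for PIP2-2. Of the 15 largest falls it lay between for 9 and below both for 6. For CRSH2 the T65 mean of 3923 was near the 4262 to 4951 of slr1, and for BURP16 the T65 mean of 130 was below the lowest slr1 array. BGLU30, at a T65 mean of 904, was more evenly placed between 82.4 to 106 in gid1-3 and 2009 to 2751 in slr1.

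**Figure D5:**
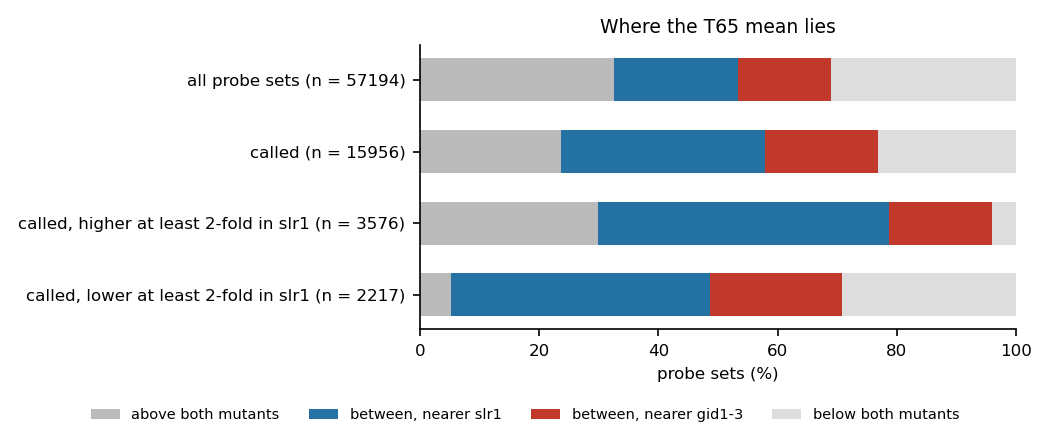
Share of probe sets (%) whose T65 mean of log2 signal lies above both mutants, between them and nearer slr1 (k1001), between them and nearer gid1-3, or below both, for all probe sets and for those called in the contrast. Between is the most frequent place among 2-fold calls in either direction, and T65 is nearer slr1 in most of these.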

How the data were processed

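Per the labels' protocols, total RNA was column-purified and labelled with biotin as cRNA. The authors deposited 1 intensity per probe set, on a linear scale, and the software that made them is not given in the sources used here. Each of the 12 arrays has a 2% trimmed mean of about 500.1. Before taking log2, values below 1 were raised to 1, and arrays were not normalized again. A linear model over the 6 arrays (limma 3.58.1, R 4.3.3) used a moderated variance that follows the mean signal, with Benjamini and Hochberg adjustment over 57194 probe sets and a threshold of 0.05. The fit was tested on simulated data. The platform table pairs 22436 probe sets with 1 gene, 95 with several and 34663 with none, giving 17905 genes, of which 2451 have a name. In lists and counts of genes, a gene stands for its brightest probe set, while the largest rises and falls were ranked over all probe sets, 1 per gene, which need not be the brightest. The members and the 60 lists were chosen with earlier results of these data known. A set of named genes was fixed by rule. GID1, GID2 and SLR1 belong to it. So do the 15 largest named rises and falls with no overlap of arrays and a signal at or above the median. From each list it takes the 4 members with the smallest p (all where a list has 8 or fewer). Not all of them are described above, where some lists are given by counts only and some other members are added. Replicate numbers were not used to pair the arrays. Gene order is from the RefSeq assembly ASM3414082v1.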

Additional observations from a re-analysis of the deposited data

How the results depend on the processing

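Over 15 other settings, the calls ranged from 11578 with no variance trend and 11669 with arrays centred on their medians to 16600 with all 12 arrays in the fit, and calls of at least 2-fold from 4659 without dim probe sets to 6143. Leaving out 1 array gave 13623 to 15206 calls. Centring on the spiked controls moved the share of higher calls to 62.1% and the share of 2-fold calls with T65 between the mutants to 61.3%. A replicate block gave 16340 calls. Deviations of same-numbered arrays correlated at 0.06, -0.02 and 0.01. The labels do not say whether replicate numbers pair the lines, and with so few arrays these values cannot decide it. Of 229 called named genes, 203 kept their call under every setting run, 26 lost it under at least 1, and 0 called values turned direction. Of 54 lists with at least 4 genes, the median kept its sign under every setting for 37, among them alpha- and beta-expansins, primary-wall cellulose synthases, tubulins, cell cycle, replication, phytoalexin and chlorophyll breakdown genes, and turned under some for 17, among them expansin-like, glyoxylate, clock, metal, metallothionein and CIPK genes. The secondary-wall cellulose synthases, as a list of 3, were not run as a list, and CESA4, CESA7 and CESA9 each kept call and direction under all 15 settings. Of the 11 tubulins 7 to 10 were higher over the settings, of the 17 cell cycle genes 8 to 10, and of the 16 phytoalexin genes 11 to 13 were lower. Signal over background limits dim genes: 16486 probe sets were below the reporter level on all 6 arrays.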
